A study of Mus musculus with 16 samples.

Results

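Accessibility of chromatin at 10 germline genes, out of 21938 protein-coding genes with an annotated transcription start site (TSS), was followed in mouse embryonic stem cells (ESCs) on their way to anterior neural progenitors. The genes were Dazl, Ddx4, Mael, Sycp1, Sycp3, Stk31, Tdrd1, Asz1, Dppa3 and Tex101, a set named by hand as germline genes whose promoters are sensitive to DNA methylation. Every deposited peak whose summit lay within 5 kb of a TSS of any of them in GENCODE M21 was taken, which gave 343 of the 3201271 peaks of all 16 libraries. DNA methylation and RNA were not measured in these libraries, so the name of the set was not checked here and only its accessibility is described.

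The study made 16 omni-ATAC libraries in 8 groups of 2, and omni-ATAC marks open DNA by where a transposase can cut it. The groups on day 3 were Tet1 catalytic mutant (MUT) cells, Tet1 knockout (KO) cells treated with the tankyrase and Wnt inhibitor XAV939 (XAV, 5 µM), untreated KO cells, wild type (WT) cells treated with CHIR99021 (CHIR, 3 µM), which inhibits GSK3 and so activates Wnt signalling, and untreated WT cells, and the groups on day 2 were MUT, KO and WT cells. Both compounds were given for 24 h from day 2. The cells came from male ESC lines of the B6129S6F1 Tet1tm1Koh background, where tm1Koh is the targeted allele of the KO lines, whereas MUT cells were clones with a catalytically dead Tet1 made by editing of a single WT line. The 2 libraries of a group came from separate lines or clones. Each p-value thus rests on the spread between lines or clones within a group, pooled over the 8 groups. MUT, KO and untreated WT cells each used the same pair of lines on both days, and XAV was given to the same pair of KO lines. Except where the line is named as a block, the fits left this pairing out. The CHIR libraries came from WT lines other than the untreated ones, so line and CHIR treatment cannot be told apart, and neither can line and genotype. No group is labelled as given the solvent only.

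In mice, germline genes of this kind are used by germ cells and kept silent in somatic tissues. Their promoters are rich in CpG dinucleotides and gain DNA methylation when the embryo implants, a step that cultured ESCs pass through when they leave the naive state. The Polycomb complex that holds E2F6 and MGA, which bind E2F and E-box motifs, the H3K9 methyltransferases and the DNA methyltransferases take part in their repression, and Tet1 oxidises 5-methylcytosine. In ATAC-seq, an open promoter gives a peak at the start of the gene.

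Each peak carries a fold enrichment, the ratio of its cut density to the local background at its summit, and a −log10 p. Peaks were also ranked within their own library, as the percentage of deposited peaks with a higher −log10 p, so that a small percentage is a strong peak and a gene without a peak is set to 100%. The lists held 161449 to 204073 peaks in untreated day 3 libraries, 209274 and 211331 with XAV, 182706 and 190903 with CHIR, and 187257 to 276451 on day 2, and all of them reached down to a −log10 p of 2.00. List length thus moved with the day, and the number of reads behind each list is unknown. Markers of formative and primed pluripotency, the state through which these cells pass, had a peak within 1 kb at 8 of 8 genes in every library. Their median rank was 8.02% to 13.7% on untreated day 3 and 10.4% to 16.6% on day 2. Of 8 genes of feeder fibroblasts, cells on which ESCs can be grown, 5 or 6 had such a peak on either day, and their median ranks were 17.1% to 27.3% on untreated day 3 and 20.1% to 29.6% on day 2.

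The promoter sequences of 9 of the 10 genes were found in RefSeq, as 12 windows of 300 bases that run from 250 before to 50 after an annotated start (GRCm38.p6), and Dppa3 had no entry. Windows are shown for 6 genes whose promoter peaks were lower on day 3 and for Dazl, whose main peak was not. Capitals mark matches to CACGTG, the E-box to which MGA and MAX bind, and to TCCCGC or its reverse complement GCGGGA, the core of an E2F site, searched on both strands. The windows are Stk31 (chr6:49395354-49395653, plus strand), Mael (chr1:166238695-166238994, minus strand), Ddx4 (chr13:112652261-112652560, minus strand), Sycp1 (chr3:102936051-102936350, minus strand), Asz1 (chr6:18109012-18109311, minus strand), Tex101 (chr7:24672001-24672300, minus strand) and Dazl (chr17:50293571-50293870, minus strand).
Stk31: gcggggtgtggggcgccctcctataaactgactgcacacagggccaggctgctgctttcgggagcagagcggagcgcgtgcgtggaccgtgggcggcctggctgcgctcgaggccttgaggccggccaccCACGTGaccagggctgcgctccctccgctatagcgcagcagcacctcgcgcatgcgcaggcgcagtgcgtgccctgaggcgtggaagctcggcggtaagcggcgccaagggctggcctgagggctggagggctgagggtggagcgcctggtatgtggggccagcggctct
Mael: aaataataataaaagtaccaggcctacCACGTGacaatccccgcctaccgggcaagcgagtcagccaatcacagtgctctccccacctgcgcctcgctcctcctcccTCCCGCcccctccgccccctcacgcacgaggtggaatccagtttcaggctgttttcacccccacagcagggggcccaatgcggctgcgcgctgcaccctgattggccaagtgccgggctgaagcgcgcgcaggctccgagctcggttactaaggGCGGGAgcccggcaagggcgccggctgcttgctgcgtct
Ddx4: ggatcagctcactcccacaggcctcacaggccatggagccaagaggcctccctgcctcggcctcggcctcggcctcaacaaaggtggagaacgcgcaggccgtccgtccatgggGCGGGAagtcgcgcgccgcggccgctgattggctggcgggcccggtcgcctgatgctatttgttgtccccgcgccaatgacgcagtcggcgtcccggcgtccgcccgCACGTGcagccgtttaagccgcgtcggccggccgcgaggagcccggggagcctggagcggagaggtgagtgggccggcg
Sycp1: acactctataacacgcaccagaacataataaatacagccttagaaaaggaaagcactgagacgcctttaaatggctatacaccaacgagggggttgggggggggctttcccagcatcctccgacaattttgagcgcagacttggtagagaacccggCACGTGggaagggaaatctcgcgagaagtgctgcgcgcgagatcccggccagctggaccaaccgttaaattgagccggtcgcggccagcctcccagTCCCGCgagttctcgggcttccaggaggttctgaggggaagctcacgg
Asz1: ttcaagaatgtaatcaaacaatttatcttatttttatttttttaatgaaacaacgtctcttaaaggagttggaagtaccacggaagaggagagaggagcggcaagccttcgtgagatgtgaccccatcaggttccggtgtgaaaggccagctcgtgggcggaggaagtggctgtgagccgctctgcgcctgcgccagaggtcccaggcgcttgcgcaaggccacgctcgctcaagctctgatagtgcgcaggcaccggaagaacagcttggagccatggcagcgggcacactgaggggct
Tex101: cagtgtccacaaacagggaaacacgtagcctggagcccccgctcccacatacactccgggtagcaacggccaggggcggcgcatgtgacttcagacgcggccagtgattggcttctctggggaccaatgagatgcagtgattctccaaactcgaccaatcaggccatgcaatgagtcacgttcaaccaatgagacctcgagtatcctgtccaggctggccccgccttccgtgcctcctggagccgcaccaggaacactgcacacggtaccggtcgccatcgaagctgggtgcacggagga
Dazl: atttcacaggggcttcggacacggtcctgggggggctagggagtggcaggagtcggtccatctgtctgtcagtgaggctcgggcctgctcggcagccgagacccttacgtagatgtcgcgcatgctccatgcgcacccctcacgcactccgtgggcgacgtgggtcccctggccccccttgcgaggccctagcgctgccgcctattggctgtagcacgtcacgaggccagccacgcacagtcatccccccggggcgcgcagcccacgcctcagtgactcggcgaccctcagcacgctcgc

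CACGTG occurred in promoter windows of 6 of the 9 genes (Ddx4, Mael, Sycp1, Sycp3, Stk31 and Tdrd1), against 8.09% of all 27025 genes with a window. TCCCGC or GCGGGA occurred in 4 of the 9 (Ddx4, Mael, Sycp1 and Sycp3), against 22.05% of all genes. Dazl, Asz1 and Tex101 held neither. The 12 windows had a median of 22.5 CpGs and a GC content of 62.3%, whereas all 32851 windows had medians of 7 CpGs and 52.7%. The ratio of observed to expected CpGs had a median of 0.78 in the windows of the set and 0.38 in all windows. These matches describe the letters of the window, and no binding was measured.

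Most genes had a peak close to an annotated start, but the strongest peak within 5 kb was not always the promoter of the gene. Summits at Stk31 (median position 49395537 on chromosome 6) and Mael (166238763 on chromosome 1) lay 67 and 16 bp upstream of the most 5′ start, outside the transcribed region. At Ddx4 the summit lay in a 5′ exon, in the UTR, 121 bp downstream of the start (112652354 on chromosome 13), and at Sycp1 in an intron 365 bp downstream (102935735 on chromosome 3). The Asz1 summit lay 36 bp upstream (18109097 on chromosome 6). The main Tex101 summit (24672128 on chromosome 7) lay 4547 bp downstream of the first start and 78 bp from an inner annotated start. Thus the windows printed for Stk31, Mael, Ddx4, Asz1 and Tex101 contain the median summit, and that of Sycp1 does not.

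At 3 genes (Tdrd1, Dppa3 and Dazl), a peak other than that of the first start was the strongest within 5 kb in every library. At Tdrd1 the strongest peak, 3898 bp upstream, had a fold enrichment of 9.42 to 14.4 in all 16 libraries and lay 122 bp from the start of the neighbouring gene Ccdc186. The peak at the start of Tdrd1 itself, 56 bp upstream, reached 2.64 to 7.48. At Dppa3 the strongest peak lay 1777 bp upstream (122624633 on chromosome 6) and was nearer to the annotated gene Gm26168 than to Dppa3. At Dazl the strongest peak lay in a 5′ exon 813 bp downstream of the first start (50292823 on chromosome 17), about 70 bp from another annotated start of Dazl, and the window printed above does not contain it. Sycp3 held a peak at its start (88459597 on chromosome 10) and another 1559 bp upstream in all 16 libraries, and the peak at its start was the stronger of these in the 6 day 2 libraries and in MUT replicate 1 and KO replicate 2 on day 3. Values below are therefore given for the strongest peak within 1 kb of any annotated start unless the 5 kb window is named.

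**Figure D1:**
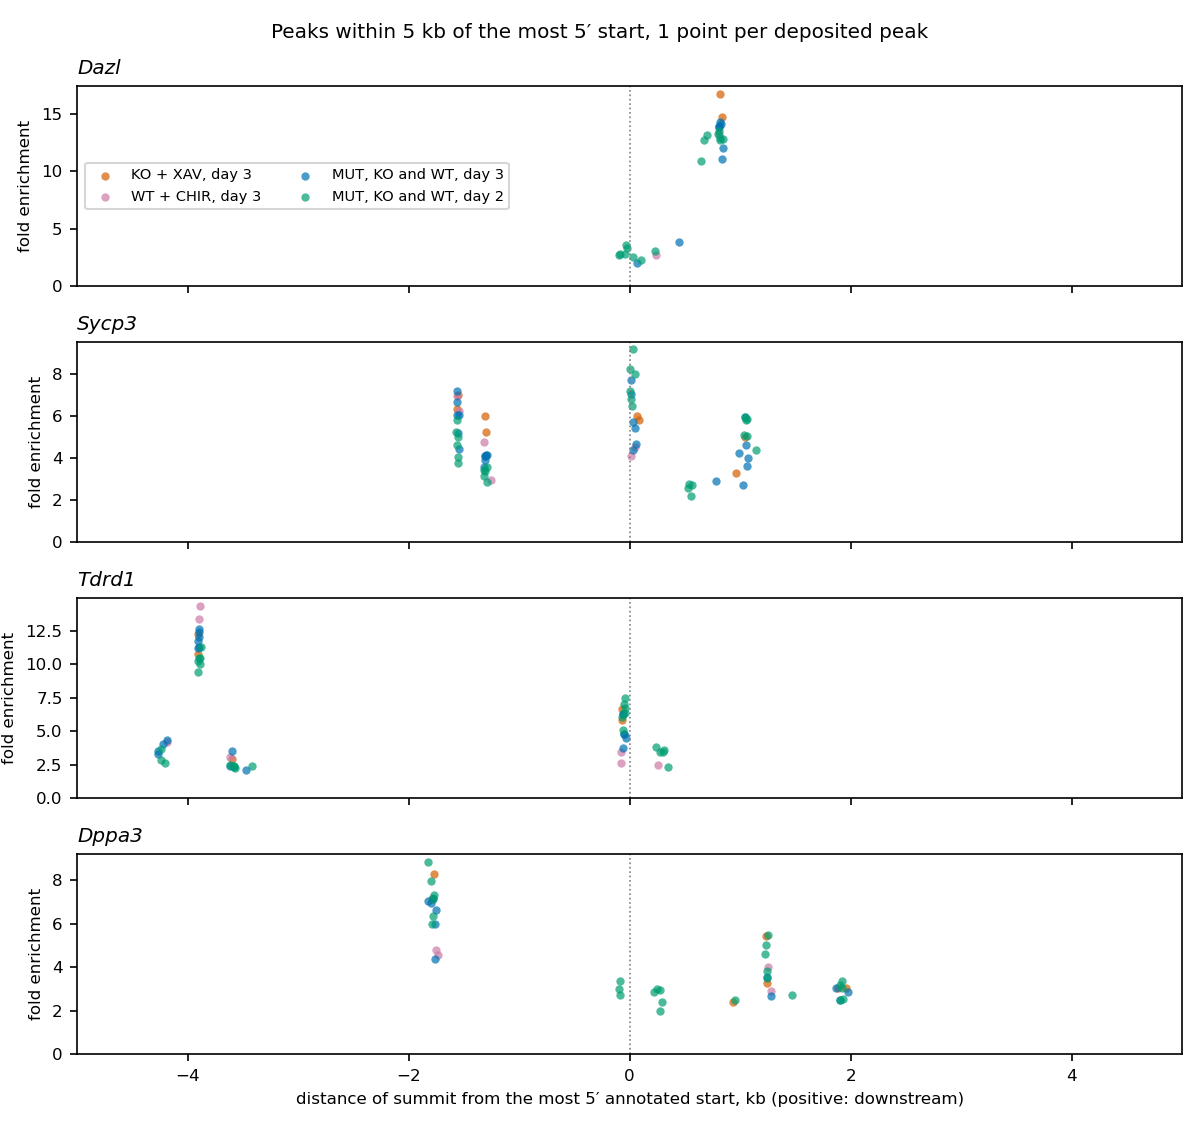
Fold enrichment of every deposited peak within 5 kb of the most 5′ start of Dazl, Sycp3, Tdrd1 and Dppa3 against the distance of its summit from that start in kb, with 1 point per peak and colours for the library groups. The strong Dazl peaks sit 813 bp downstream, the strong Tdrd1 peaks 3898 bp upstream and the strong Dppa3 peaks 1777 bp upstream, and the Dppa3 points beside the start itself are all from day 2.

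Most of the genes had a peak in every group. Within 5 kb, all 10 genes had a peak in both libraries of each day 2 group, of KO cells with XAV and of untreated KO cells on day 3, against 9 in MUT cells, 8 in CHIR-treated WT cells and 9 in untreated WT cells on day 3. Within 1 kb on day 3, the counts were 10 in KO cells with XAV and 7 in each of MUT and untreated KO cells. They were 6 in CHIR-treated WT cells and 8 in untreated WT cells on day 3, and 10 in each group on day 2. Of all protein-coding genes, 79.1% (CHIR-treated WT) to 81.0% (MUT, day 2) had a peak within 5 kb in both libraries of a group. Within 1 kb this share was 71.8% (untreated KO, day 3) to 74.0% (WT, day 2). Of the 10 genes, 7 had a peak within 5 kb in all 16 libraries, as did 75.8% of all protein-coding genes. Over the 6 comparisons of genotype and treatment, 0 of the 60 pairs of gene and comparison were gained in both libraries of a group and absent from both of the other, or the reverse, within 5 kb, against 0.867% of such pairs over all genes. Within 1 kb there were 2. Tex101 was counted as lost in MUT against WT cells on day 3 (0.264% of all genes were lost). Its WT peaks were weak and lay at different sites, so no single peak was lost. They were 3.12 in replicate 1, 4547 bp downstream of the first start, and 3.00 in replicate 2, 263 bp downstream. The Asz1 peak was gained in KO cells with XAV against untreated KO cells (0.716% of all genes were gained).

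The comparison of day 3 with day 2 asked how these promoters changed over a day of differentiation, with the 6 untreated libraries of each day. By rank within 5 kb, 7 of the 10 genes ranked weaker in every day 3 library than in any day 2 library (Ddx4, Mael, Sycp1, Sycp3, Stk31, Asz1 and Dppa3), against 3.77% of all genes, and 0 ranked stronger, against 0.47%. Ranked by fold enrichment in place of −log10 p, 4 of the 10 did so, and the share of all genes by that ranking was not counted. By −log10 p, Dppa3 was barely separated, with 21.01% as its best rank on day 3 and 21.00% as its weakest on day 2. Within 1 kb there were also 7, with Tex101 in place of Dppa3, against 3.39% of all genes. The linear model of limma on the log2 fold enrichment could be fitted within 5 kb for the 7 genes with a peak in every library. With Benjamini-Hochberg adjustment over 16619 genes, it placed 3 of the 7 lower on day 3 (Stk31, Mael and Ddx4; 5.26% of all genes were lower) and 1 higher (Tdrd1; 3.38% of all genes were higher). The median log2 difference was −0.18 over the 7 genes and 0.02 over all genes fitted. The higher value of Tdrd1 (0.19 ± 0.06, SE, adjusted p = 0.0475, limma with Benjamini-Hochberg adjustment) came from the peak beside Ccdc186, and the call was lost when any library other than KO replicate 1 on day 3 was left out (adjusted p = 0.0526 to 0.126, limma with Benjamini-Hochberg adjustment). An added fit took the strongest peak within 1 kb and set a missing peak to the lowest fold enrichment of its library. It placed 6 of the 10 lower and 0 higher, against 4.73% of all 17427 genes fitted lower. It gave 9 of 10 an unadjusted p under 0.05, against 4189 of 17427 genes. Its median difference was −0.96 over the 10 genes and 0.02 over all genes. The same fit within 500 bp placed 8 of the 10 lower, against 4.75% of all genes. Without each library in turn, the fit within 1 kb placed 6 to 8 of the 10 lower.

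Among the genes of germ cell identity, Ddx4 encodes the RNA helicase Vasa, which marks germ cells. Its promoter peak had a fold enrichment of 5.00, 7.01 and 8.74 (lowest, median and highest) in the 6 untreated day 3 libraries and of 7.63, 10.4 and 13.5 in the 6 day 2 libraries. The ranges overlapped, because KO replicate 2 on day 2 was lower than the first MUT and KO libraries on day 3. Its ranks did not overlap, at 18.3% to 42.8% on day 3 and 2.26% to 14.2% on day 2. The log2 difference was −0.55 ± 0.10 (SE, adjusted p = 0.00287, limma with Benjamini-Hochberg adjustment).

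Dazl encodes an RNA-binding protein that germ cells need for their development and for translation of stored RNAs. Its strong peak 813 bp downstream had a fold enrichment of 11.1, 13.9 and 14.2 on day 3 and of 12.7, 13.0 and 13.5 on day 2, and ranked within the top 3.95% of peaks in each untreated library. The log2 difference was 0.00 ± 0.07 (SE, adjusted p = 0.977, limma with Benjamini-Hochberg adjustment, 95% interval −0.14 to 0.15). A second, weak peak at the first start of Dazl was present in 1 of 6 untreated day 3 libraries (KO replicate 1, 2.02) and in 6 of 6 day 2 libraries (2.49 to 3.59). So within this gene the strong inner peak had overlapping values on both days, while the weak peak at the first start was listed in more of the day 2 libraries.

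Mael, Asz1 and Tdrd1 are needed in the mouse male germline to silence transposons through piRNAs, small RNAs that guide PIWI proteins. Stk31 encodes a germ cell protein with a Tudor and a kinase-like domain. Mael reached 4.68, 5.26 and 5.78 on day 3 and 9.19, 10.7 and 11.4 on day 2. All 6 day 3 libraries were below all 6 day 2 libraries, with ranks of 35.2% to 47.6% on day 3 and 6.88% to 12.8% on day 2. The log2 difference was −0.99 ± 0.10 (SE, adjusted p = 2.3e-05, limma with Benjamini-Hochberg adjustment). A second Mael peak in the first intron, 222 bp downstream, was listed in 1 of 6 libraries on day 3 (3.96) and in 6 of 6 on day 2 (4.66 to 7.90).

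Stk31 reached 4.33, 6.51 and 8.05 on day 3 and 10.1, 12.1 and 13.9 on day 2, again without overlap. Its log2 difference was −0.95 ± 0.10 (SE, adjusted p = 2.54e-05, limma with Benjamini-Hochberg adjustment). The ranks of Stk31 were 19.7% to 52.2% on day 3 and 4.06% to 9.63% on day 2. The part of list length, which moved with the day, was not tested in these differences.

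Asz1 had a promoter peak in 1 of 6 libraries on day 3 (WT replicate 2, 3.33) and in 6 of 6 on day 2 (6.12, 7.04 and 8.54). A missing peak here means that no peak was listed down to the p of 0.01 at which the lists end, not that no cut was made. With missing peaks at the lowest value of their library, the log2 difference was −2.08 ± 0.27 (SE, adjusted p = 0.00126, limma with Benjamini-Hochberg adjustment), which depends on that value. A weak intronic peak 30229 bp downstream of the first start, within 5 kb of an inner start, was listed in 2 of 6 libraries on day 3 (3.22 and 3.24) and in 3 of 6 on day 2 (3.66 to 4.23). Tdrd1 at its own start reached 3.73, 4.79 and 6.29 on day 3 and 5.07, 6.56 and 7.48 on day 2. These ranges overlapped. The log2 difference within 1 kb was −0.36 ± 0.10 (SE, adjusted p = 0.0324, limma with Benjamini-Hochberg adjustment) for genes with a peak in every library and −0.34 ± 0.11 (adjusted p = 0.083, limma with Benjamini-Hochberg adjustment) with missing peaks filled, so the call depended on the set of genes fitted.

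Sycp1 and Sycp3 encode the transverse filament and the lateral element of the synaptonemal complex, which joins chromosomes in meiosis. Sycp1 reached 3.00, 4.19 and 5.80 on day 3 and 6.59, 9.34 and 10.9 on day 2, without overlap. Its log2 difference was −1.10 ± 0.17 (SE, adjusted p = 0.00302, limma with Benjamini-Hochberg adjustment, within 1 kb with missing peaks filled). At the start of Sycp3 the peak reached 4.35, 5.55 and 7.71 on day 3 and 6.46, 7.59 and 9.15 on day 2, so the ranges overlapped. The Sycp3 peak 1559 bp upstream reached 4.40, 6.04 and 7.19 on day 3 and 3.73, 4.82 and 5.81 on day 2. Thus the upstream peak had the higher median on day 3 and the promoter peak the higher median on day 2. Within 5 kb the log2 difference of Sycp3 was −0.17 ± 0.08 (SE, adjusted p = 0.232, limma with Benjamini-Hochberg adjustment), which did not pass the threshold.

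Dppa3, also known as Stella, protects the maternal genome against demethylation in the mouse zygote and is active in germ cells and naive ESCs. No peak was listed within 500 bp of its starts in the 6 untreated day 3 libraries, whereas each of the 6 day 2 libraries listed one at 91 bp upstream, 275 bp downstream or both, with fold enrichments of 1.99 to 3.37. The upstream site was listed in 3 of the 6 and the downstream site in 5. These peaks were weak, with ranks from 48.3% down to 99.7%, near the end of a list, and the part of list length was not tested. The peak 1777 bp upstream was present in all libraries, at 4.38, 6.80 and 7.20 on day 3 and 6.02, 7.22 and 8.87 on day 2. The ranges overlapped, and the log2 difference within 5 kb was −0.18 ± 0.08 (SE, adjusted p = 0.210, limma with Benjamini-Hochberg adjustment). Tex101 encodes a surface protein of male germ cells that mouse sperm need for fertility. Its main peak was listed in 2 of 6 libraries on day 3 (KO replicate 1, 2.58, and WT replicate 1, 3.12) and in 6 of 6 on day 2 (3.94 to 5.69). The log2 difference within 1 kb with missing peaks filled was −1.21 ± 0.18 (SE, adjusted p = 0.00267, limma with Benjamini-Hochberg adjustment).

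**Figure D2:**
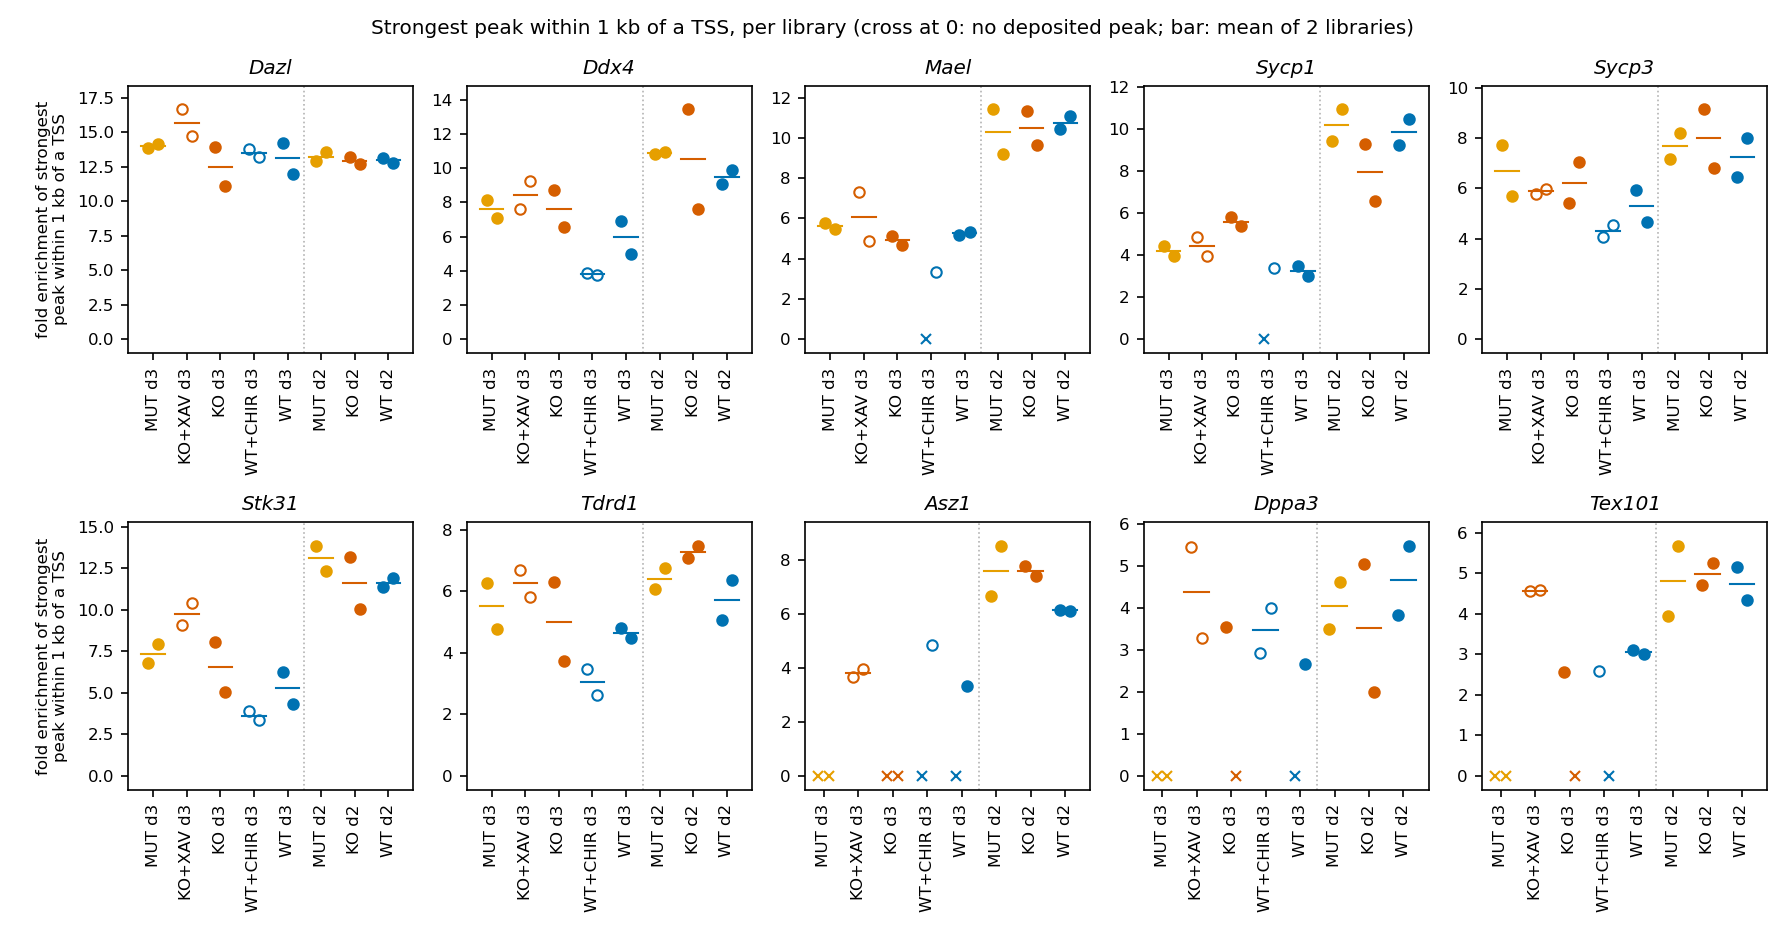
Fold enrichment of the strongest peak within 1 kb of a TSS in each of the 16 libraries, 1 panel per gene, with groups on the x axis (d3, day 3; d2, day 2; open points, treated cells; crosses at 0, no peak listed; bars, mean of 2 libraries where both have a peak). Mael, Stk31 and Sycp1 are lower in all 6 untreated day 3 libraries than in all 6 day 2 libraries, whereas Dazl lies between 11.1 and 16.7 throughout.

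**Figure D3:**
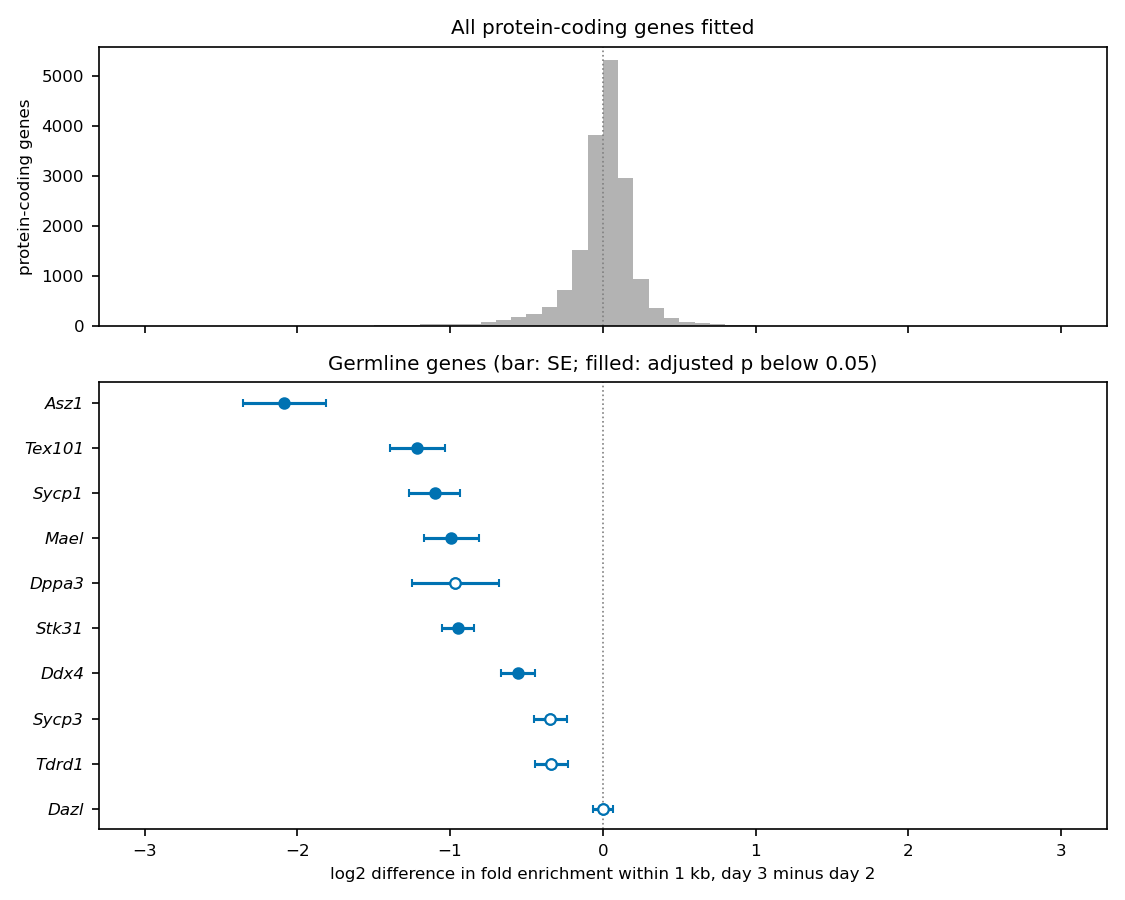
Upper panel, number of protein-coding genes by log2 difference in fold enrichment within 1 kb, day 3 minus day 2, with missing peaks at the lowest value of their library. Lower panel, the same difference for the 10 genes on the same axis, with bars for the SE and filled points for an adjusted p below 0.05, which 6 genes have, the most negative being Asz1 at −2.08.

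The comparison of genotypes asked whether loss of Tet1 or of its catalytic activity changed these promoters. On day 3, limma with Benjamini-Hochberg adjustment called 0 of the 7 fitted genes between KO and WT cells (0.102% of all genes were called) and 0 of 7 between MUT and WT cells (0.0% of all genes). At an unadjusted p under 0.05 there were 2 of 7 for KO, against 1428 of 16619 genes, and 2 of 7 for MUT, against 849 of 16619 genes, and these were Stk31 and Ddx4 in both cases. By rank within 5 kb, 5 of the 10 genes were stronger in both KO libraries than in both WT libraries (Ddx4, Sycp1, Sycp3, Stk31 and Tdrd1), against 17.1% of all genes, and 0 were weaker, against 12.0%. Within 1 kb, 3 were stronger (Ddx4, Sycp1 and Stk31), against 15.3%, and 1 was weaker (Tex101), against 11.0%. Sycp3 was not among the 3, and its value in WT replicate 1 (5.93) came from an intronic peak 1048 bp downstream of the first start. At its start, Sycp3 was at 7.71 and 5.68 in MUT cells, 5.42 and 7.03 in KO cells, and 4.35 and 4.66 in WT cells. For MUT cells within 5 kb, 7 of the 10 were stronger (Dazl, Ddx4, Mael, Sycp1, Stk31, Tdrd1 and Dppa3), against 17.8% of all genes, and 0 were weaker, against 11.0%. Within 1 kb, 7 were stronger, with Sycp3 in place of Dppa3, against 16.1%, and 1 was weaker (Tex101), against 9.91%. Tdrd1 enters the 5 kb counts by the peak beside Ccdc186. Tex101 enters the 1 kb counts by weak WT peaks at different sites, with ranks of 85.8% and 83.2%, so its calls do not describe 1 promoter peak. These comparisons share the same WT libraries, and 2 libraries against 2 cannot give an exact p under 0.33.

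Stk31 on day 3 was at 6.79 and 7.93 in MUT cells, 8.05 and 5.04 in KO cells, and 6.23 and 4.33 in WT cells. Both MUT libraries were above both WT libraries, and the fold enrichment of KO cells overlapped that of WT cells, although the ranks did not. The log2 difference was 0.52 ± 0.16 for MUT against WT cells (SE, 95% interval 0.17 to 0.87, adjusted p = 0.714, limma with Benjamini-Hochberg adjustment) and 0.39 ± 0.16 for KO against WT cells (interval 0.04 to 0.74, adjusted p = 0.516, limma with Benjamini-Hochberg adjustment). Ddx4 was at 8.15 and 7.09 in MUT cells, 8.74 and 6.54 in KO cells, and 6.92 and 5.00 in WT cells. Its log2 difference was 0.39 ± 0.17 for MUT against WT cells (SE, interval 0.02 to 0.75, adjusted p = 0.963, limma with Benjamini-Hochberg adjustment) and 0.44 ± 0.17 for KO against WT cells (interval 0.08 to 0.81, adjusted p = 0.453, limma with Benjamini-Hochberg adjustment). Neither gene passed the threshold.

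Sycp1, which lacked a peak in 1 library and so was not in the 5 kb fit, was at 4.42 and 3.96 in MUT cells, 5.80 and 5.40 in KO cells, and 3.46 and 3.00 in WT cells. Here both mutant groups were above both WT libraries. Within 1 kb, with the missing peak filled, the log2 difference of Sycp1 between KO and WT cells was 0.84 ± 0.29 (SE, adjusted p = 0.419, limma with Benjamini-Hochberg adjustment). In the same fit it was 0.83 ± 0.14 without CHIR replicate 1, which lacks the peak (SE, adjusted p = 0.0357, limma with Benjamini-Hochberg adjustment), and 0.83 ± 0.14 without CHIR replicate 2, which has it (adjusted p = 0.035, limma with Benjamini-Hochberg adjustment). The difference was much the same in these fits, and the call depended on whether both CHIR libraries were in the fit. In the 5 kb fit without CHIR replicate 1 the difference was 0.88 ± 0.13. Mael was at 5.78 and 5.49 in MUT cells, 5.15 and 4.68 in KO cells, and 5.19 and 5.33 in WT cells. The 95% interval of its log2 difference was −0.35 to 0.35 for KO against WT cells and −0.23 to 0.47 for MUT against WT cells. Asz1 had no promoter peak in either MUT or either KO library and a peak of 3.33 in 1 WT library.

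On day 2, limma with Benjamini-Hochberg adjustment called 0 of 7 genes for KO against WT cells (0.0% of all genes; 0 of 7 at an unadjusted p under 0.05, against 616 of 16619 genes) and 0 of 7 for MUT against WT cells (0.0% of all genes; 0 of 7 at an unadjusted p under 0.05, against 538 of 16619 genes). By rank within 5 kb, 1 gene was stronger in KO cells (Asz1; 17.0% of all genes) and 4 were stronger in MUT cells (Ddx4, Sycp1, Stk31 and Asz1; 15.5% of all genes). Within 1 kb, Tdrd1 joined both lists, which gave 2 for KO cells (15.6% of all genes) and 5 for MUT cells (14.2%). Asz1 on day 2 was at 6.66 and 8.54 in MUT cells, 7.79 and 7.42 in KO cells, and 6.15 and 6.12 in WT cells. Both WT values were the lowest of the 6. Whether the difference between KO and WT cells changed from day 2 to day 3 was tested as an interaction in limma with Benjamini-Hochberg adjustment, which called 0 of 7 genes (0.0% of all genes; 0 of 7 at an unadjusted p under 0.05, against 772 of 16619 genes).

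The comparison of CHIR-treated with untreated WT cells on day 3 asked what activation of Wnt signalling did at these promoters. Limma with Benjamini-Hochberg adjustment called 1 of the 7 fitted genes lower, Mael, against 1.31% of all genes, and 5 of 7 had an unadjusted p under 0.05, against 2332 of 16619 genes. The median log2 difference was −0.44 over the 7 genes and 0.01 over all genes. By rank within 5 kb, 5 of the 10 were weaker in both CHIR libraries (Ddx4, Mael, Stk31, Dppa3 and Tex101), against 17.7% of all genes, and 2 were stronger (Tdrd1, by the peak beside Ccdc186, and Asz1), against 18.9%. The Asz1 call joins different sites. In CHIR replicate 1 its peak was the intronic one 30229 bp downstream of the first start, and in replicate 2 it was the promoter peak. Within 1 kb, 6 of the 10 were weaker (Ddx4, Mael, Sycp3, Stk31, Tdrd1 and Tex101), against 16.5% of all genes, and 1 was stronger (Dppa3), against 16.6%. In both windows, Tex101 enters by weak WT peaks at different sites, with ranks of 85.8% and 83.2%. The direction of Dppa3 and of Tdrd1 thus turned with the window.

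Mael had no peak within 1 kb in CHIR replicate 1 and a peak of 3.36 in replicate 2, against 5.19 and 5.33 in untreated WT cells. Its log2 difference of −0.67 ± 0.17 (SE, adjusted p = 0.0474, limma with Benjamini-Hochberg adjustment) used, for replicate 1, a peak 3674 bp upstream with a fold enrichment of 2.92. In the added fit within 1 kb, with missing peaks filled, 0 of 10 genes were called (2.15% of all genes were called). An unadjusted p under 0.05 was found for 4 of 10, against 2354 of 17427 genes. The Mael call was lost without either replicate of CHIR-treated cells, of MUT or KO cells on day 3, or of untreated WT cells on day 3 or day 2, and the difference without each library was −0.76 to −0.57. Ddx4 was at 3.90 and 3.74 with CHIR and at 6.92 and 5.00 in untreated WT cells. Stk31 was at 3.90 and 3.36 with CHIR and at 6.23 and 4.33 in untreated WT cells. Both genes were lower in both CHIR libraries, but neither difference passed the threshold (Ddx4, −0.56 ± 0.17, adjusted p = 0.125; Stk31, −0.44 ± 0.16, adjusted p = 0.216; SE, limma with Benjamini-Hochberg adjustment).

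The other genes did not all go the same way with CHIR. Dazl remained at 13.8 and 13.2 with CHIR, against 14.2 and 12.0 in untreated WT cells (log2 difference 0.04, 95% interval −0.21 to 0.28). The start of Tdrd1 was lower, at 3.48 and 2.64 with CHIR, against 4.80 and 4.48 in untreated WT cells. Asz1 had a promoter peak of 4.86 in CHIR replicate 2 only, against 3.33 in WT replicate 2 only. The CHIR lists held 182706 and 190903 peaks, against 182414 and 170543 in untreated WT cells, and the part of list length was not tested.

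XAV, given to KO cells, asked about the reverse step, lowered Wnt signalling. Limma with Benjamini-Hochberg adjustment called 0 of the 7 genes between KO cells with XAV and untreated KO cells (0.283% of all genes were called; 2 of 7 had an unadjusted p under 0.05, against 1663 of 16619 genes). By rank within 5 kb, 4 of the 10 were stronger in both XAV libraries (Dazl, Stk31, Asz1 and Dppa3), against 20.5% of all genes, and 2 were weaker (Sycp1 and, by the peak beside Ccdc186, Tdrd1), against 12.0%. For Asz1, the untreated KO peaks in this window were intronic ones, at 3.22 and 3.24. Within 1 kb, 4 were stronger (Dazl, Stk31, Asz1 and Tex101), against 17.9%, and 1 was weaker (Sycp1), against 11.4%. The start of Tdrd1 itself was at 6.68 and 5.81 with XAV and at 6.29 and 3.73 in untreated KO cells. Stk31 was at 9.12 and 10.4 with XAV and at 8.05 and 5.04 in untreated KO cells. Both XAV values were above both untreated ones, and the log2 difference of 0.48 ± 0.16 (SE, 95% interval 0.13 to 0.83, adjusted p = 0.308, limma with Benjamini-Hochberg adjustment) did not pass the threshold.

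The peak at the start of Asz1 was listed in both XAV libraries, at 3.65 and 3.98, and in neither untreated KO library. Tex101 was at 4.56 and 4.59 with XAV, against 2.58 in KO replicate 1 and no peak within 1 kb in KO replicate 2. With XAV, Asz1 was below its day 2 range and Tex101 lay within its own. The XAV lists were the longer ones, with 211331 and 209274 peaks against 204073 and 161449 in untreated KO cells, and the part of list length in these peaks was not tested. Sycp1 went the other way, at 4.86 and 3.98 with XAV and 5.80 and 5.40 in untreated KO cells. Ddx4 overlapped, at 7.60 and 9.26 with XAV and 8.74 and 6.54 in untreated KO cells.

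Over the set as a whole, the median rank of the 10 genes within 1 kb was 30.6% to 47.5% in the untreated day 3 libraries and 8.10% to 14.2% in the day 2 libraries. It was 25.7% and 34.1% with XAV and 68.9% and 73.2% with CHIR. Over all protein-coding genes it was 9.51% to 11.4% on untreated day 3 and 7.88% to 11.0% on day 2, with 10.7% and 11.4% for CHIR. The median of the 10 was thus weaker than that of all genes in every library, on both days. Single genes differed from it: Dazl ranked at 1.28% to 3.62% on untreated day 3, and Tex101 at 34.7% to 60.2% on day 2.

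A list of 41 other germline genes, with piRNA factors and genes of meiosis, was at 21.8% to 37.3% on untreated day 3 and 11.0% to 18.8% on day 2, and at 38.3% and 42.5% with CHIR. Of its 34 genes in the 5 kb fit, 7 were lower on day 3 (5.26% of all genes) and 2 higher (3.38% of all genes), with a median of −0.05. Within 1 kb with missing peaks filled, 16 of 40 were lower (4.73% of all genes) and 1 higher (642 of 17427 genes), with a median of −0.25. Examples are Piwil2, a PIWI protein that binds piRNAs (log2 difference −1.11, adjusted p = 1.18e-05), Syce1, a central element protein of the synaptonemal complex (−0.998, adjusted p = 3.5e-06), and Morc1, which represses transposons in male germ cells (−0.74, adjusted p = 0.00476, all by limma with Benjamini-Hochberg adjustment). With CHIR, the synaptonemal genes Sycp2 (−0.89, adjusted p = 0.0203) and Syce1 (−0.55, adjusted p = 0.0395) were lower in the 5 kb fit (limma with Benjamini-Hochberg adjustment). Of all genes, 1.31% were lower with CHIR in that fit.

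In the fit within 1 kb with missing peaks filled, the calls of this list differed from those within 5 kb, and each difference depends on the filled value where a peak is missing. With CHIR they were Stra8, which starts meiosis (−1.54, adjusted p = 0.00343), and Mov10l1, a helicase of piRNA biogenesis (−1.30, adjusted p = 0.000986), both lower, in place of Sycp2 and Syce1 (limma with Benjamini-Hochberg adjustment; 2.15% of all genes were called). In KO against WT cells on day 3, the same fit called Mov10l1 (−1.30, adjusted p = 0.00353) and Stra8 (−1.28, adjusted p = 0.0383) lower (limma with Benjamini-Hochberg adjustment; 0.327% of all genes were called). In KO cells with XAV against untreated KO cells, it called Mov10l1 (1.75, adjusted p = 0.000247), Stra8 (1.33, adjusted p = 0.0268) and Hormad1, a protein of the meiotic chromosome axis (1.25, adjusted p = 0.000247), higher (limma with Benjamini-Hochberg adjustment; 0.402% of all genes were called). The comparisons of KO and of XAV share the untreated KO libraries of day 3, and those of KO and of CHIR share the untreated WT libraries. For the change of the KO difference between the days, it called Mov10l1 (−1.54, adjusted p = 0.0186, limma with Benjamini-Hochberg adjustment; 0.201% of all genes were called). Of the 10 genes described here, 0 were called in these 4 comparisons. At an unadjusted p under 0.05 there were 3 (KO), 4 (CHIR), 3 (XAV) and 1 (change between days). Over all 17427 genes fitted, there were 1453 (KO), 2354 (CHIR), 1607 (XAV) and 906 (change between days).

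A list of 24 repressors of germline genes had a peak within 1 kb at every gene in every library. Their median rank was 4.99% to 6.68% on untreated day 3 and 5.04% to 8.67% on day 2. In the 5 kb fit, 0 were lower on day 3 (5.26% of all genes were lower) and 1 was higher (3.38% of all genes were higher). The higher gene was Ehmt1, an H3K9 methyltransferase (0.20, adjusted p = 0.041, limma with Benjamini-Hochberg adjustment). An unadjusted p under 0.05 was found for 8 of 24, against 3931 of 16619 genes. Of 6 specifiers of primordial germ cells and 8 pluripotency markers, 0 passed the threshold between the days in limma with Benjamini-Hochberg adjustment. At an unadjusted p under 0.05 there were 1 of 6 and 2 of 8, against the same 3931 of 16619 genes. In the 5 kb fit, CHIR-treated cells were higher at Nanos3 (0.47, adjusted p = 0.0239), which protects germ cells from death in mice. They were also higher at Lef1, a factor and target of Wnt signalling (0.52, adjusted p = 0.0201, both by limma with Benjamini-Hochberg adjustment). Of all genes fitted, 153 of 16619 were higher with CHIR. Within 1 kb with missing peaks filled, limma called 0 genes of either list with CHIR (2.15% of all genes were called). An unadjusted p under 0.05 was found for 0 of 5 specifiers fitted and 3 of 8 pluripotency markers, against 2354 of 17427 genes.

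**Figure D4:**
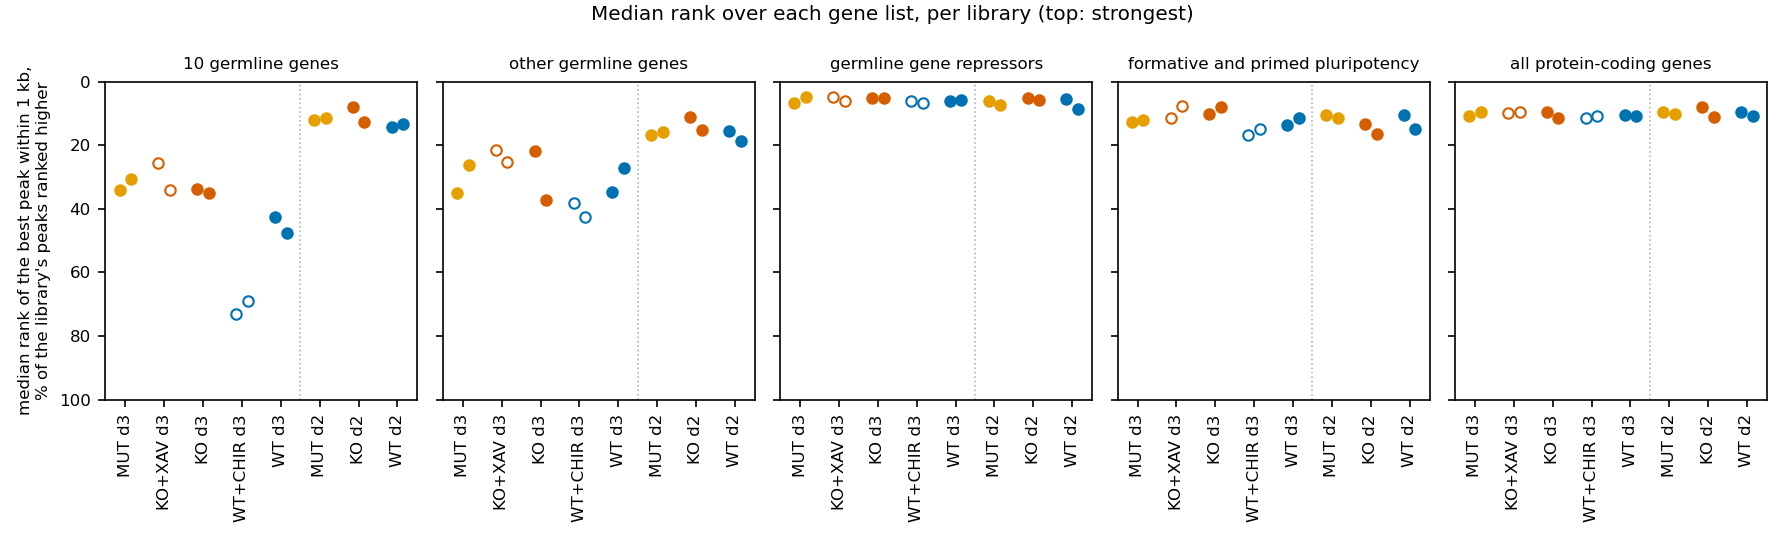
Median rank of the best peak within 1 kb over each gene list in each library, as the percentage of the peaks of that library that ranked higher (the axis runs from 0 at the top, strongest, to 100), with groups on the x axis and open points for treated cells. The 10 germline genes lie at 30.6% to 47.5% in untreated day 3 libraries and 8.10% to 14.2% in day 2 libraries, with the 2 CHIR libraries at 68.9% and 73.2%, while the repressors lie at 8.67% or less in the untreated ones.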

How the data were processed

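Omni-ATAC was done in 16 libraries of mouse cells, 8 groups of 2. Per the labels and methods, the authors ran the ENCODE ATAC-seq pipeline on mm10, removed duplicates and mitochondrial reads, shifted reads for the transposase and called peaks in each library down to a p of 0.01. The aligner and caller versions were not given in the sources used here, and the processing notes name DiffBind 3.0.15, HOMER 2 and deepTools 3.4.3. The deposited lists give the fold enrichment at the summit (a ratio to local background), −log10 p, −log10 q and the summit offset, with no read counts, so read depth is unknown. A shorter list has fewer weak peaks, so presence depends on it. The authors also deposited regions that differed between KO and WT cells on day 3, as coordinates with a region number, which were not used.

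Start sites came from GENCODE M21, which shares its coordinates with mm10. For each gene, the highest fold enrichment within 5 kb was put on the log2 scale with no pseudocount, quantile normalised and fitted with limma 3.58.1 in R 4.3.3, with 8 groups and all 16 libraries, for genes with a peak in every library, with Benjamini-Hochberg adjustment and a threshold of 0.05. The study fitted read counts, which these lists do not hold. On simulated data the fit recovered 90.5% of 200 genes changed by 1 log2 unit in KO against WT cells on day 3, among 16619 genes. Smaller changes were not simulated, so this rate does not cover differences below 1 log2 unit. Peaks of a gene with summits within 150 bp were joined into 1 site. All 10 genes were described, and of the other lists at most 3 genes per comparison past the threshold were named. The genes and lists were chosen with earlier results of these data known. Cell line pairs the libraries across days, and with XAV, since the labels give the same line names. Alternatives changed the window, the peak measure, missing peaks, the start sites, the normalisation, the block and each library in turn. The fits within 1 kb and 500 bp with missing peaks filled were added after the data were seen. Python 3.11.15 with pandas 2.3.3 and matplotlib 3.10.9 was used.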

Additional observations from a re-analysis of the deposited data

How the results depend on the processing

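Between day 3 and day 2, 4 genes passed the threshold (3 lower, 1 higher), against 2 with summed fold enrichment, 8 within 500 bp with missing peaks filled (added after the data were seen), and 3 to 4 when each library was left out. With summed fold enrichment, 340 of all 16619 genes were lower and 166 were higher. Ranks by fold enrichment placed 4 genes lower on day 3 in place of 7, which was 7 without each library. The share of all genes was not counted for ranks by fold enrichment. Tdrd1 turned to −0.36 within 1 kb, −0.00189 with the sum, and −0.34 with missing peaks filled within 1 kb and 500 bp, where its own promoter replaces the Ccdc186 peak except for the sum. Sycp3 turned to 0.00299 with the sum. Dazl, near 0, turned to −0.000461 within 1 kb, −0.0497 by −log10 p, −0.37 with the sum, −0.000217 and −0.00096 with missing peaks filled within 1 kb and 500 bp, and −0.035 to 0.044 without each library. With CHIR, the count of 1 (Mael) became 0 with missing peaks filled in any window, within 1 kb, by −log10 p and with the sum, and was 0 to 1 without each library. It was 0 without either replicate of CHIR, of untreated WT on day 2 or day 3, of MUT on day 3, or of KO on day 3. KO against WT cells on day 3 gave 0 to 1, the 1 being Sycp1 without CHIR replicate 1, which lacks that peak. Stk31 with XAV turned to −0.0751 with the sum. The cause of these changes was not tested where none is named. Pairs of gene and group with a peak in both libraries numbered 76 (76 to 77 without each library) and 43 among the top 50000 peaks. Gains and losses numbered 0, against 2 within 1 kb, 4 among the top 50000 peaks, 1 with the most 5′ start only and 0 to 2 without each library. For these counts of presence, the shares of all genes were not taken in the alternatives other than the 1 kb window, so they cannot be set against a background. Pairs of gene and comparison without overlap by rank within 5 kb, over the 6 comparisons, numbered 30. They numbered 31 to 39 without each library, where a group of 1 overlaps less. Of all genes, 7.54% (weaker in KO than WT cells on day 2) to 20.5% (stronger with XAV) did so per comparison and direction. With the cell line as a replicate block (consensus correlation 0.0636), 4 genes passed between the days, 1 with CHIR and 0 in the other comparisons, so the block changed no count. With 2 lines per group and no read counts, weak peaks limit what can be told.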
